A study of Mus musculus with 8 samples.

Results

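The cytosolic heat shock chaperones followed here are 10 genes, Hsf1, Hspa1a, Hspa1b, Hspa8, Hsp90aa1, Hsp90ab1, Hsph1, Dnajb1, Dnaja1 and Chordc1, out of 35275 genes listed for mouse lens fiber cells (FC). They were taken by gene symbol. Dnajb1 was chosen by its FPKM (fragments scaled to the length of the transcript and to the mapped fragments of the library), which were higher in every library of mice exposed to cigarette smoke (CS) than in any control library, so its difference between groups is given as a description with no test. The other 9 were taken with it as the transcription factor, paralogs and partners of the same chaperone system. Each of the 10 symbols matched a single gene, and 8 of the 10 had a mean of at least 1 FPKM in both groups. Hspa1a and Hspa1b stayed below that level in every library.

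Lens FC of C57BL/6J mice (C57BL/6 in the sample labels) were sequenced as 8 libraries, 4 from CS-exposed mice and 4 from untreated control (Ct) mice of the same age. The CS-exposed mice were born in a whole-body smoke chamber and were exposed 5 hours/day and 5 days/week for 3.5 months, and the Ct mice were raised without smoke. Each library was made from the FC of the right eyes of 4 mice, which were separated from the lens epithelium under a microscope and pooled, so the spread between libraries is that between pools and not between single mice. Males and females were pooled separately, but the sex of a given library is not stated in the labels.

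When proteins unfold, the transcription factor HSF1 is released from chaperones, forms trimers and binds heat shock elements, short inverted repeats of GAA and TTC, in the promoters of chaperone genes. HSP70 proteins bind exposed hydrophobic stretches of their clients in a cycle of ATP hydrolysis that J-domain proteins start and nucleotide exchange factors end, and HSP90 then matures a narrower set of clients with its own co-chaperones. In the lens, fiber cells lose their nuclei and organelles as they mature and their crystallins are not replaced, and HSF4 rather than HSF1 is the heat shock factor known for its role in fiber cell development.

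The libraries held an estimated 18100000 to 23300000 fragments, and CS-exposed libraries were 1.07 times as deep as Ct libraries on average. The 10 markers of lens fiber cells summed to 164338 to 170763 FPKM in Ct and 159151 to 168348 FPKM in CS-exposed libraries, most of it from Cryaa and Crygs. Of the 10, 9 had a mean between 71.1 FPKM (Dnase2b) and 95145 FPKM (Cryaa), but Lim2, a fiber cell membrane protein, was at 6.47 to 8.62 FPKM in the highest of its 3 entries, the one used. The 6 markers of lens epithelium summed to 39.7 to 99.0 FPKM in Ct, with Ct replicate 3 the highest, and to 32.0 to 57.9 FPKM in CS-exposed libraries. Their median log2 fold change was -0.32, with 1 of 6 above 0, and 1 (Npnt) was lower at an unadjusted limma p under 0.05. The 8 rod photoreceptor markers summed to 10.7 to 27.2 FPKM in Ct and to 30.5 to 83.6 FPKM in CS-exposed libraries, and 6 of the 7 that could be tested were higher at an unadjusted limma p under 0.05. Over all 9794 genes tested, 4.83% had such a p, 2.75% higher and 2.08% lower in CS-exposed libraries. In every marker list, 0 genes had an adjusted p under 0.05. The 5 markers of the retinal pigment epithelium summed to 0.922 to 1.84 FPKM against 2.68 to 25.4 FPKM, with Best1 listed at 0 in all libraries and CS replicate 3 the highest, and 4 of 4 tested were higher. Markers of red blood cells summed to 0.243 to 1.73 FPKM in Ct and 0.407 to 22.6 FPKM in CS-exposed libraries, with CS replicate 4 the highest and 1 of 2 tested higher, and markers of leukocytes to at most 0.750 FPKM. A gene was tested if its mean reached 1 FPKM in either group. In Ct the pigment epithelium sum averaged 1.25 FPKM and the red blood cell sum 0.818 FPKM. Most genes tested in both lists therefore passed this minimum only through CS-exposed libraries, where they were high. The counts called higher in both lists follow in part from that minimum, and nothing is drawn from them. In pooled tissue of this kind, fewer cells of a type and less RNA per cell cannot be told apart.

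Promoters of inducible chaperone genes are known for heat shock elements, so the start of each gene was searched for them. RefSeq start sites (GRCm38.p6) were at hand for 6 of the 10 genes, Hspa1a, Hspa1b, Hsph1, Dnajb1, Dnaja1 and Chordc1. The 250 bases before the start are printed below, 5′ to 3′ on the strand of the gene, for the inducible HSP70 pair, for Hsph1 and for Dnajb1. Capitals mark a matched pair of heat shock element units, GAANNTTC or TTCNNGAA.
Hspa1a, chr17:34972157-34972406, minus strand: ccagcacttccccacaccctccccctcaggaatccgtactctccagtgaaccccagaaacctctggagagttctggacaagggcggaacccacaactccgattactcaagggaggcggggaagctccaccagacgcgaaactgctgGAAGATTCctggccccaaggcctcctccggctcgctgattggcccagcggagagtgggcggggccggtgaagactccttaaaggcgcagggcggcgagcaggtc
Hspa1b, chr17:34959239-34959488, minus strand: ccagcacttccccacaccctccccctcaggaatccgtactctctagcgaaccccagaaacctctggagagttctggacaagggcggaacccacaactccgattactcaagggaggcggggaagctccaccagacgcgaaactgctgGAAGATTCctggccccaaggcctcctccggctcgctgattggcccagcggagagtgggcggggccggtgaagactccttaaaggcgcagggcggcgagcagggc
Hsph1, chr5:149636337-149636586, minus strand: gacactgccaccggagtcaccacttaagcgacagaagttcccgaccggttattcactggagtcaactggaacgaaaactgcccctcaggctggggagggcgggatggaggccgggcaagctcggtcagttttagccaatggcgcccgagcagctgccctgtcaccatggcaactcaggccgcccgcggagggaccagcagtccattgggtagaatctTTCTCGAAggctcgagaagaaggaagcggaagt
Dnajb1, chr8:83607925-83608174, plus strand: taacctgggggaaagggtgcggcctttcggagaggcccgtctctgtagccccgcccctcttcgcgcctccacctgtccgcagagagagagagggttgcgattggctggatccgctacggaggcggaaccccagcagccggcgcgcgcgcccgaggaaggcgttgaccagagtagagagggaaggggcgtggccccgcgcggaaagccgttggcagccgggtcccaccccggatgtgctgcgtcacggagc

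The windows of Hspa1a and Hspa1b were identical at 247 of 250 positions (98.8%), and both held GAAGATTC 104 bases before the start. Hsph1 held TTCTCGAA 33 bases before the first of its 2 listed starts, the one printed, and 54 bases before the other, and Dnaja1 held GAAAATTC 124 bases before the first of its 3 listed starts. No match was found in the windows of Dnajb1 and Chordc1, which says only that these letters are not in the 250 bases searched. GAANNTTC stood in 6.69% and TTCNNGAA in 7.17% of the 32851 mouse windows of that length. A run of 3 alternating units, GAA or TTC each followed after NN by the other, was in none of the 6 genes and in 0.466% of all windows. These motifs read the same on both strands, the run of 3 was searched in both orders, and a run of 3 also holds the matches to both pairs. The HSP70 pair is shown as the lowest, and Dnajb1 as the gene picked for its difference, and a match is a description of letters and not of a bound site.

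The FPKM of the 10 genes fell in the order Hspa8, Hsp90ab1, Dnajb1, Hsp90aa1, Dnaja1, Chordc1, Hsf1, Hsph1, Hspa1b and Hspa1a. Each gene was above the next in this order in 8 of 8 libraries. The ranges over all libraries overlapped for 3 neighbouring pairs, Hspa8 with Hsp90ab1, Chordc1 with Hsf1, and Hspa1b with Hspa1a. Hspa8 ranked 58 and Hsp90ab1 ranked 69 by mean FPKM among all 35275 genes, while Hspa1b ranked 10855 and Hspa1a 14056. FPKM is scaled to length, so genes can be compared with each other within a library as far as the lengths hold. The lengths implied by the FPKM were 2018 bases for Hsf1, 2205 for Chordc1 and 3158 for Hspa8. Their annotated exons cover 7099, 7498 and 4301 bases, whereas for Hspa1a and Hspa1b the implied and annotated lengths were the same. The order and the folds between genes rest on the implied lengths, and other lengths were not tried.

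**Figure D1:**
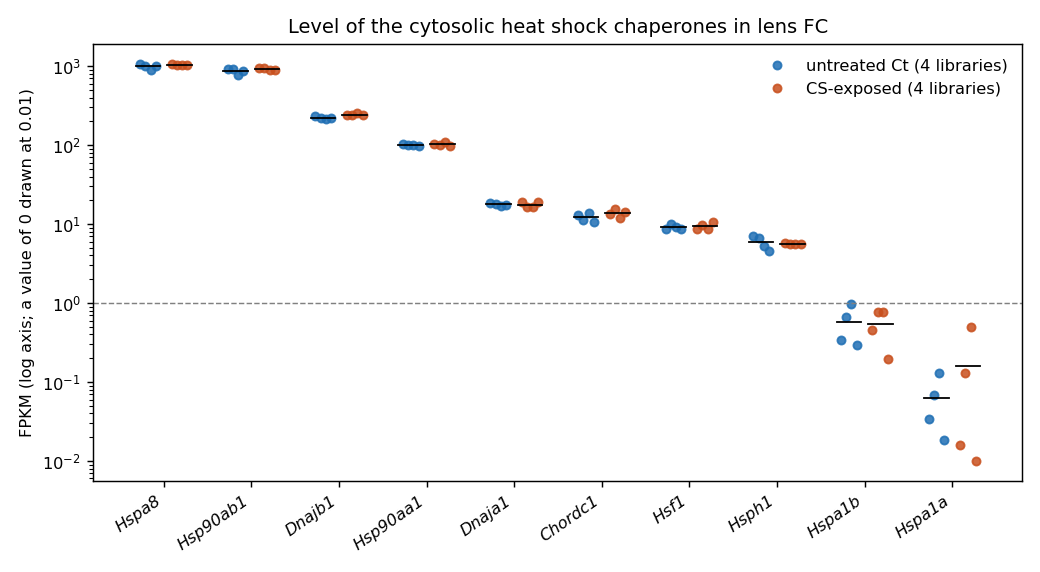
FPKM of the 10 genes on a log axis, with 1 point per library (blue, untreated Ct; orange, CS-exposed; 4 libraries each) and a bar at the mean of each group. Hspa8 and Hsp90ab1 lie near 1000 FPKM, while Hspa1b and Hspa1a lie under the dashed line at 1 FPKM in every library; the CS library in which Hspa1a was listed at 0 is drawn at 0.01.

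Hsf1, the heat shock transcription factor (15:76477422-76501913, plus strand; GRCm38), was expressed at an even level and ranked 2919 by mean FPKM among all 35275 genes. It measured 8.55, 9.96, 9.29 and 8.68 FPKM in the 4 untreated Ct libraries. It measured 8.55, 9.63, 8.76 and 10.7 FPKM in the 4 CS-exposed libraries. The groups overlapped, with CS replicate 4 the highest. The means were 9.12 ± 0.648 and 9.41 ± 0.978 FPKM (SD, n = 4 each), and the log2 fold change of CS-exposed against Ct was 0.04 with a SE of 0.09 (limma, adjusted p = 0.989). Hsf4, the lens heat shock factor, was 14 to 17.3 times Hsf1 in the same libraries. Hsf4 measured 135 to 141 FPKM in Ct and 143 to 151 FPKM in CS-exposed libraries, without overlap, and its log2 fold change of 0.09 had an unadjusted limma p of 0.0416 and an adjusted p of 0.956. The unadjusted p of Hsf4 passed 0.05 in 9 of 19 alternative settings and was 0.0721 with the replicate number as a block.

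Hspa8 (9:40800984-40810087, plus strand), the constitutive cytosolic HSP70 that folds new proteins and uncoats clathrin vesicles, was the most abundant of the 10 genes. Its FPKM was 1070, 1017, 893 and 1018 in untreated Ct libraries. In CS-exposed libraries it was 1059, 1029, 1042 and 1048. Ct replicate 3 was the lowest of all 8 and the others lay close together, so that the SD was 7.53% of the mean in Ct and 1.21% in CS-exposed libraries. The log2 fold change was 0.07 with a SE of 0.05 and a 95% interval of -0.04 to 0.17 (limma, adjusted p = 0.956), and without Ct replicate 3 it was 0.01. Hspa8 made up 99.5% to 99.8% of the summed FPKM of 5 cytosolic HSP70 genes.

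Hspa1b (17:34956436-34959238, minus strand) and Hspa1a (17:34969190-34972156, minus strand) encode the stress-inducible HSP70, which cells hold low until HSF1 is activated. In untreated Ct libraries Hspa1b measured 0.341, 0.669, 0.982 and 0.296 FPKM, which rested on 19, 37, 64 and 15 reads. In CS-exposed libraries it measured 0.456, 0.772, 0.765 and 0.198 FPKM, from 27, 50, 44 and 12 reads. Ct replicate 3 was the highest and CS replicate 4 the lowest, and the groups overlapped over most of their range. The mean was 0.572 ± 0.320 FPKM in Ct and 0.548 ± 0.276 FPKM in CS-exposed libraries (SD, n = 4 each). Hspa1b was below the minimum for the test, and with no minimum its log2 fold change was -0.05 (limma, unadjusted p = 0.909). Hspa8 was 909 to 5295 times as abundant as Hspa1b.

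Hspa1a was lower still. It had 2, 4, 9 and 1 reads in untreated Ct libraries (0.0339, 0.0683, 0.130 and 0.0186 FPKM) and 1, 9, 30 and 0 reads in CS-exposed libraries (0.0160, 0.131, 0.493 and 0 FPKM). The 30 reads of CS replicate 3 set it apart from the others. The 0 of CS replicate 4 allows up to 3 reads, or 0.0467 FPKM at its depth, and such limits cover counting error only since the reads carry no molecular identifiers. With no minimum, the log2 fold change of Hspa1a was 0.34 (limma, unadjusted p = 0.535). The transcripts of Hspa1a and Hspa1b share 1074 windows of 150 bases, the length of a read. These were 38.1% of the windows of Hspa1a and 40.5% of those of Hspa1b, so reads from these stretches may have been dropped or split between the pair, and the level of each gene is uncertain. Hspa1a shared no window of that length with Hspa8.

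The balance of inducible to constitutive HSP70 was compared as the log2 ratio of summed Hspa1a and Hspa1b to Hspa8. It was -10.80 ± 0.943 in untreated Ct and -10.84 ± 1.18 in CS-exposed libraries (SD, n = 4 each). The difference of -0.03 was smaller than the SD of either group (p = 0.971 by a two-sided exact permutation test over 70 assignments, adjusted p = 0.971 over 3 ratios). The smallest p that this design allows is 0.0286. Single libraries set the sign of this difference, which ranged from -0.41 without CS replicate 3 to 0.35 without Ct replicate 3 and 0.48 without CS replicate 4. Hspa1a against Hspa1b, with 0.1 FPKM added to both since 1 value is 0, differed by 0.40 on the log2 scale (exact permutation test, p = 0.457, adjusted p = 0.686). That difference was 0.05 without CS replicate 3, 0.62 without CS replicate 1, and 0.13 with 1 FPKM added.

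Hspa1b varied more between libraries of a group than between groups. The 5 genes whose log2 level over the 8 libraries was most like that of Hspa1b, of 9794 genes, were Inhba, Atp1b1, Ppt1, Plekhg3 and Map4k5, with Pearson r of 0.969, 0.967, 0.967, 0.964 and 0.961. The highest of so many correlations over 8 points is large by selection, and no p is given. Like Hspa1b, the epithelium marker sum was highest in Ct replicate 3 and lowest in CS replicate 4; the part of epithelial RNA in the level of Hspa1b was not tested. The 10 immediate early genes, which many cells switch on during handling, summed to 17.1 to 21.5 FPKM in Ct and 16.7 to 21.0 FPKM in CS-exposed libraries, and 0 of the 4 that could be tested passed an unadjusted p of 0.05. Btg2, Jun and Dusp1 were the most abundant of them, and Fos was at most 0.315 FPKM.

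**Figure D2:**
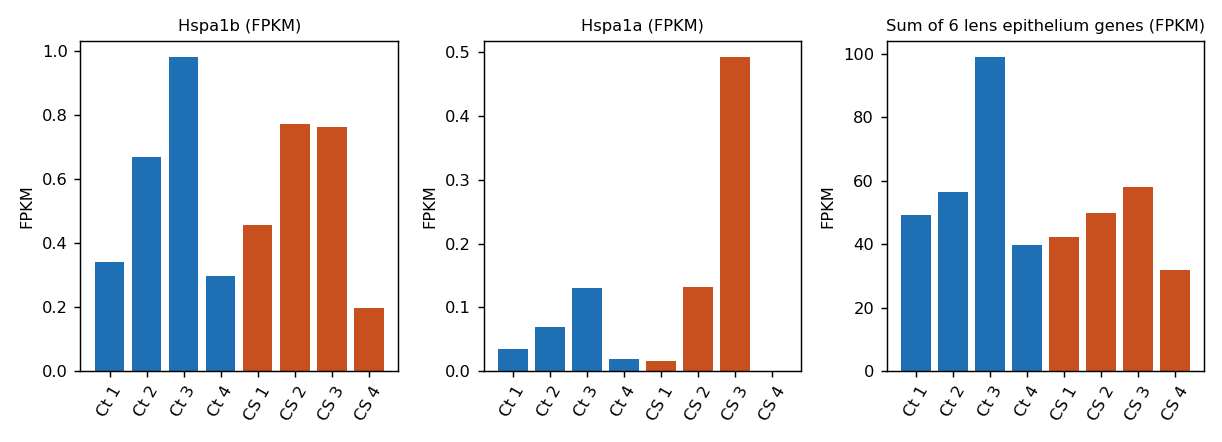
FPKM in each library (blue, Ct; orange, CS-exposed) of Hspa1b, of Hspa1a and of the sum of 6 lens epithelium markers, each on its own linear axis. Hspa1b and the epithelium sum are highest in Ct replicate 3 and lowest in CS replicate 4, and Hspa1a is highest in CS replicate 3.

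Hsph1 (5:149614287-149636376, minus strand), an HSP110 protein that acts as a nucleotide exchange factor of HSP70, measured 7.07, 6.65, 5.21 and 4.57 FPKM in untreated Ct libraries. In CS-exposed libraries it measured 5.77, 5.64, 5.60 and 5.58 FPKM. The CS-exposed values all lay inside the range of the Ct values. The means were 5.88 ± 1.18 and 5.65 ± 0.0849 FPKM (SD, n = 4 each), and the log2 fold change was -0.03 with a SE of 0.13 (limma, adjusted p = 0.995). The SD was 20.1% of the mean in Ct and 1.5% in CS-exposed libraries, where 4.17% would come from counting reads alone. Hspa8 was 151 to 223 times Hsph1.

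Hsp90ab1 (17:45567775-45573271, minus strand), the constitutive cytosolic HSP90, measured 929, 916, 768 and 872 FPKM in untreated Ct libraries. It measured 942, 936, 898 and 902 FPKM in CS-exposed libraries. Ct replicate 3 was again the lowest, as for Hspa8, and the groups overlapped. The means were 871 ± 72.8 and 919 ± 22.6 FPKM (SD, n = 4 each). The log2 fold change was 0.08 with a 95% interval of -0.04 to 0.20 (limma, adjusted p = 0.956). Without Ct replicate 3 the log2 fold change was 0.02.

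Hsp90aa1 (12:110690605-110702728, minus strand), the stress-responsive paralog, measured 104, 102, 99.4 and 96.2 FPKM in untreated Ct libraries. It measured 103, 99.95, 108 and 97.5 FPKM in CS-exposed libraries. The groups overlapped and the SD was under 5% of the mean in both. The log2 fold change was 0.02 with a 95% interval of -0.08 to 0.13 (limma, adjusted p = 0.989). Hsp90ab1 was 7.73 to 9.36 times Hsp90aa1 and made up 88.6% to 90.3% of their sum. The log2 ratio of Hsp90aa1 to Hsp90ab1 was -3.12 ± 0.110 in Ct and -3.17 ± 0.0817 in CS-exposed libraries (SD, n = 4 each), and the difference of -0.06 had an exact permutation p of 0.457 (adjusted p = 0.686). It was -0.0015 without Ct replicate 3 and -0.10 without CS replicate 3. For each replicate number the ratio was lower in the CS-exposed than in the Ct library. With the replicate number as a block, the exact permutation p was 0.125, the smallest that this block allows. Replicate 3 had the highest ratio in both groups, -2.95 in Ct and -3.05 in CS-exposed libraries. The transcripts of the 2 genes shared none of 3132 windows of 150 bases, so their reads can be told apart.

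Dnajb1 (8:83608193-83612653, plus strand), the J-domain protein HSP40 that delivers clients to HSP70 and starts its ATPase, was the third most abundant of the 10 genes. It measured 235.5, 222, 213 and 223 FPKM in untreated Ct libraries. It measured 242, 239, 256 and 240 FPKM in CS-exposed libraries. All CS-exposed libraries were above all Ct libraries, which is the pattern for which the gene was picked. The gap between the groups was small, since the lowest CS-exposed value was 238.7 FPKM and the highest Ct value 235.5 FPKM. The means were 223 ± 9.30 and 244 ± 8.01 FPKM (SD, n = 4 each), 9.32% higher in CS-exposed libraries, or a log2 fold change of 0.13. Between 9119 and 12473 reads stood behind each value.

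For comparison, 1.8% of the 9794 genes tested had all CS-exposed libraries above all Ct libraries, 176 genes in all, and the log2 fold change of Dnajb1 stood at the percentile 83.7 of these genes. In 1.29% all CS-exposed libraries were below all Ct libraries, so 3.08% did not overlap in either direction. Dnajb1 was 1 of them by the rule, and none of the other 9 genes had groups that did not overlap. Under the 19 alternative settings its log2 fold change ranged from 0.08, with quantile normalization, to 0.15, without Ct replicate 1. The rod and pigment epithelium marker sums, at 10.7 to 27.2 against 30.5 to 83.6 FPKM and 0.922 to 1.84 against 2.68 to 25.4 FPKM, were likewise higher in every CS-exposed library, and both were highest in CS replicate 3, the library with the most Dnajb1. Their part in the level of Dnajb1 was not tested. Without CS replicate 3, the log2 fold change of Dnajb1 was 0.11.

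The genes most like Dnajb1 over the 8 libraries, of 9793, were Megf9, Atg101, Papola, Shc1 and Zfp426, with Pearson r of 0.977, 0.964, 0.957, 0.942 and 0.934. Part of this likeness is the difference between groups for which Dnajb1 was picked, and no p is given. Megf9, an EGF-repeat membrane protein, measured 20.4 to 22.4 FPKM in Ct and 22.4 to 24.8 FPKM in CS-exposed libraries. Atg101, a subunit of the kinase complex that starts autophagy, measured 6.82 to 7.97 and 8.34 to 10.1 FPKM. None of the 5 is a chaperone of the lists used here.

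Dnaja1 (4:40722150-40737149, plus strand), a farnesylated J-domain protein that also works with HSP70, measured 18.5, 18.1, 16.7 and 17.6 FPKM in untreated Ct libraries. It measured 18.8, 16.6, 16.2 and 19.0 FPKM in CS-exposed libraries, which held both the lowest and the highest values. The mean was 17.7 FPKM in both groups, with an SD of 0.782 in Ct and 1.46 in CS-exposed libraries (n = 4 each). The log2 fold change was -0.01 with a 95% interval of -0.17 to 0.15 (limma, adjusted p = 0.995). Dnajb1 was 12.3 to 15.8 times Dnaja1.

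Chordc1 (9:18292125-18317442, plus strand), an HSP90-binding protein with zinc-binding CHORD domains, measured 13.1, 11.3, 13.6 and 10.6 FPKM in untreated Ct libraries. It measured 13.3, 15.3, 11.9 and 14.4 FPKM in CS-exposed libraries. CS replicates 2 and 4 were above every Ct library and CS replicates 1 and 3 were inside the Ct range. The means were 12.2 ± 1.43 and 13.7 ± 1.49 FPKM (SD, n = 4 each), and the log2 fold change of 0.18 was the largest of the members tested, with a 95% interval of -0.05 to 0.40 (limma, unadjusted p = 0.112, adjusted p = 0.956). The unadjusted limma p was 0.0373 without CS replicate 3, with a log2 fold change of 0.24, and 0.04996 without Ct replicate 3, with 0.23, both under 0.05. The log2 fold change was 0.11 without Ct replicate 4 and 0.12 without CS replicate 2, neither with an unadjusted limma p under 0.05.

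**Figure D3:**
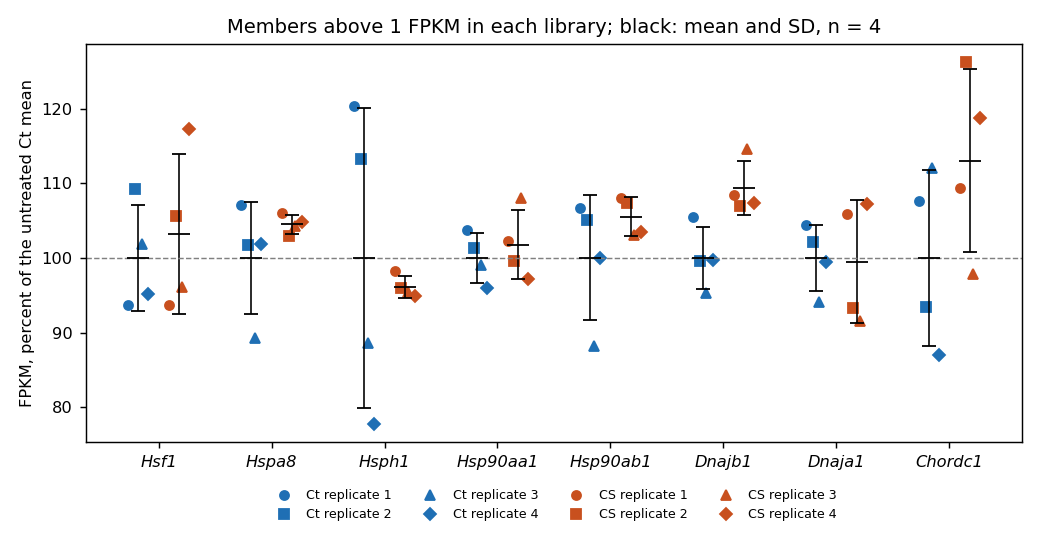
FPKM in each library as a percent of the untreated Ct mean for the 8 genes above 1 FPKM, with a marker shape per replicate number and black bars at the mean and SD (n = 4 per group). The Dnajb1 libraries of the 2 groups do not overlap, whereas the others do, and Ct replicate 3 is the lowest library for Hspa8, Hsp90ab1 and Dnajb1.

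Apart from Dnajb1, 0 of the 7 members tested had an unadjusted limma p under 0.05, and the count was also 0 with limma-voom on recovered reads. By adjusted p it was 0 as well. Over all 9794 genes, 4.83% had an unadjusted p under 0.05, 2.75% higher and 2.08% lower in CS-exposed libraries, and 0.0102%, 1 gene (Gm26917, named after its values were seen), had an adjusted p under 0.05, which became 0 genes without Ct replicate 4. The median log2 fold change of the 7 members tested other than Dnajb1 was 0.04, with 5 above 0, beside a median of 0.0043 and 51.2% above 0 over all genes. The 95% intervals of the log2 fold change that were not given above were -0.16 to 0.24 for Hsf1 and -0.32 to 0.25 for Hsph1, the latter the widest of the 7. A p that misses the threshold does not show that the groups were alike.

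**Figure D4:**
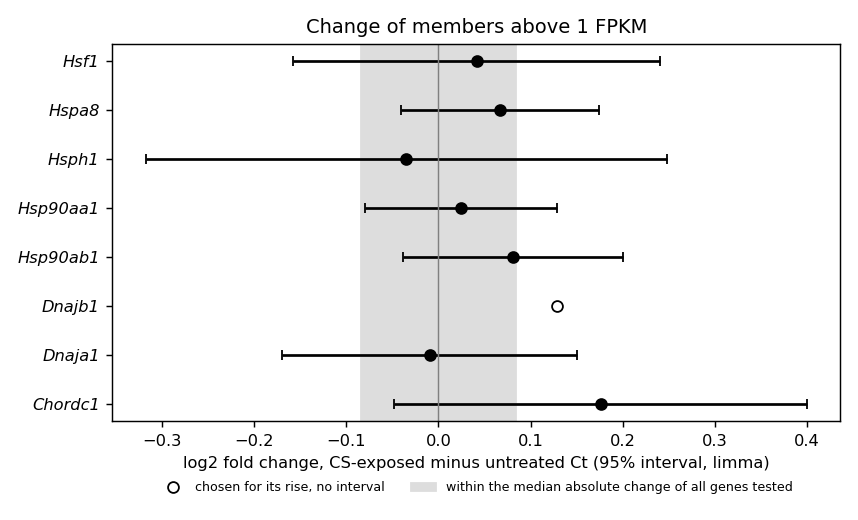
Log2 fold change of CS-exposed against untreated Ct for the 8 genes above 1 FPKM, with 95% intervals from limma (4 libraries per group) and grey shading over changes no larger than the median absolute change of all genes tested, 0.08. Every interval includes 0, and Dnajb1, chosen for its rise, is an open point with no interval.

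The library with the lowest value differed among the members. Ct replicate 3 held the lowest value of Hspa8 and Hsp90ab1, and also that of Dnajb1, which had to lie in a Ct library by the way the gene was picked. Ct replicate 4 held the lowest value of Hsp90aa1, Hsph1 and Chordc1, CS replicate 4 that of Hspa1a and Hspa1b, Ct replicate 1 that of Hsf1 and CS replicate 3 that of Dnaja1. Among 77 other chaperone genes tested, 16 (20.8%) were lowest in Ct replicate 3, 17 (22.1%) in Ct replicate 4 and 10 (12.99%) in CS replicate 4, compared with 13.3%, 16.1% and 16.5% of all genes tested. These shares are descriptions, and their differences were not tested. Ct replicate 3 also had the highest epithelium marker sum of the 8 libraries, and its part in these values was not tested.

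The partners of these chaperones were followed through 88 other genes, of which 77 could be tested. Of these, 4 (5.19%) had an unadjusted p under 0.05, 3 higher and 1 lower, close to the 4.83% of all genes, and 0 had an adjusted p under 0.05. Their median log2 fold change was 0.02, with 44 above 0, beside a median of 0.0043 and 51.2% above 0 over all genes. This count ranged from 0 without Ct replicate 4 to 8 without Ct replicate 2.

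Of the other HSP70 and HSP110 genes, 4 of 7 were tested and 0 passed. Hspa4, another HSP110 exchange factor, was the most abundant at 26.3 to 29.5 FPKM, followed by Hspa4l and Hspa14 at under 6 FPKM. Of 19 other cytosolic J-domain genes, 16 were tested and 0 passed, with 5 above 0 and a median log2 fold change of -0.03. Dnajb2, a J-domain protein with ubiquitin-binding motifs, was the most abundant at 110 to 140 FPKM, followed by Dnaja2 at 22.3 to 25.4 FPKM and Dnajb6 at 19.3 to 21.6 FPKM. Dnajb1 made up 44.8 ± 0.458% of the summed FPKM of 21 J-domain genes in Ct and 46.5 ± 0.899% in CS-exposed libraries (SD, n = 4 each), and Dnajb1 and Dnajb2 together 70.0% and 71.8%. These shares contain the gene picked for its difference and are given with no test.

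Of 10 nucleotide exchange factors and co-chaperones of HSP70, all were tested and 0 passed. Stip1, which hands clients from HSP70 to HSP90, measured 120 to 158 FPKM and was lowest in Ct replicate 3. Bag1, an exchange factor, measured 130 to 138 FPKM and Stub1, a ubiquitin ligase that binds HSP70 and HSP90, 59.5 to 71.2 FPKM. Of 19 HSP90 co-chaperones, 17 were tested, with 0 higher and 1 lower. Nudc measured 271 to 299.98 FPKM, Ahsa1, the activator of the HSP90 ATPase, 74.4 to 87.3 FPKM, and Cdc37, which brings kinases to HSP90, 48.9 to 55.2 FPKM. Tomm34, which binds HSP70 and HSP90, measured 5.19 to 6.73 FPKM in Ct and 4.74 to 5.63 FPKM in CS-exposed libraries, and its log2 fold change was -0.27 (limma, unadjusted p = 0.0245, adjusted p = 0.956). That p passed 0.05 in 14 of 19 alternative settings, but not without Ct replicate 1, Ct replicate 4, CS replicate 2 or CS replicate 4, nor with limma-voom.

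Among the other heat shock factors and their binding protein, 3 of 6 were tested and Hsf4 alone passed an unadjusted p of 0.05. Hsbp1, which binds HSF1 trimers, measured 71.9 to 83.5 FPKM and Hsf2 2.11 to 3.44 FPKM, both with overlapping groups. All 8 subunits of the CCT chaperonin, the ring that folds actin and tubulin, were tested and 0 passed. Cct5, at 223 to 259 FPKM, Cct2, at 97.4 to 116 FPKM, and Cct7, at 88.4 to 99.0 FPKM, were the most abundant. Of the 6 prefoldin subunits, which carry clients to CCT, 1 passed. Pfdn5 measured 357 to 373 FPKM in Ct and 366 to 417 FPKM in CS-exposed libraries, with a log2 fold change of 0.10 (limma, unadjusted p = 0.0366, adjusted p = 0.956). The unadjusted p of Pfdn5 passed 0.05 in 11 of 19 alternative settings and reached 0.161 with no variance trend, and leaving out any of 6 libraries (Ct replicates 2, 3 and 4 and CS replicates 1, 3 and 4) lost it. Pfdn1 measured 41.0 to 47.6 FPKM and Pfdn2 39.7 to 45.5 FPKM.

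Of 7 mitochondrial chaperones, 1 passed, and 6 had a log2 fold change above 0 with a median of 0.10. Hspe1, the lid of the mitochondrial HSP60 chamber, measured 254 to 323 FPKM in Ct and 311 to 343 FPKM in CS-exposed libraries, with a log2 fold change of 0.17 (limma, unadjusted p = 0.0228, adjusted p = 0.956). It was lowest in Ct replicate 3, and without that library the log2 fold change was 0.12 and the unadjusted p 0.0666. Hspd1, the HSP60 chamber itself, measured 33.4 to 37.5 FPKM and Hspa9, the mitochondrial HSP70, 28.3 to 35 FPKM. Of 15 genes known to be induced by heat, which share members with the lists above, Hspe1 was the 1 that passed, 12 were above 0 and the median log2 fold change was 0.08. Over all genes tested, 51.2% were above 0 with a median of 0.0043, and neither list was tested as a set. The small heat shock proteins Cryab, at 15262 to 18379 FPKM, and Hspb1, at 4158 to 4536 FPKM, and the polyubiquitin gene Ubb, at 647 to 705 FPKM, were the most abundant of them, and their groups overlapped.

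**Figure D5:**
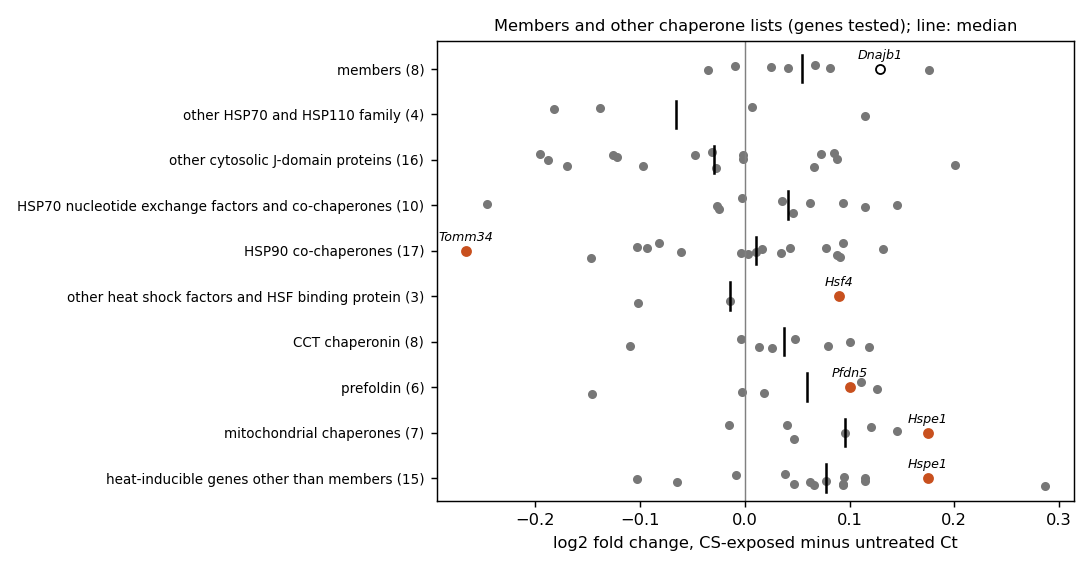
Log2 fold change of CS-exposed against untreated Ct for each gene tested in the members and in 9 lists of partner genes (number tested in brackets), with a black line at the median of each list, which for the members includes Dnajb1. Filled orange points had an unadjusted limma p under 0.05 and the open point is Dnajb1, chosen for its rise; most points lie within 0.2 of 0 in either direction.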

How the data were processed

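Total RNA of 8 pools of lens FC, 4 per group, was sequenced with paired reads of 150 bases. The authors aligned reads with STAR 2.5 to GRCm38 (mm10), took gene counts with HTSeq 0.6.1 and deposited these as FPKM per library, the values used here. Their group means, log2 fold changes, p-values and adjusted p-values for the comparison of groups were not used. The annotation release is not given in the sources used here. Groups and replicate numbers came from the sample labels.

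Genes whose mean reached 1 FPKM in at least 1 group (9794 of 35275) were tested on log2(FPKM + 0.1), which understates changes of low genes, with limma 3.58.1 in R 4.3.3 (eBayes with trend, two-sided, Benjamini-Hochberg over all genes tested). Ratios were compared with exact permutation tests. Hspa1a to Hspa1b was planned without a pseudocount and was given 0.1 FPKM because 1 value is 0. Whole reads were recovered from the steps of the FPKM for 9772 of the 9794 genes (99.8%, within 0.02 of a whole number), and were tested with limma-voom as an alternative. The estimate of fragments per library rests on annotated gene lengths, which gave the same depth for 774 of 9285 genes. The fit was tested on simulated data. Coordinates are from GENCODE genes on GRCm38, and promoters from RefSeq. Python 3.11.15 was used for the rest, with scipy 1.17.1 for tests, pandas 2.3.3 and numpy 2.4.6 for tables and matplotlib 3.10.9 for figures.

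The members and gene lists were chosen with earlier results of these data known, and nothing is supported by that choice. Genes named are the 10 members, in each list the 3 with the highest mean FPKM and up to 5 with an unadjusted p under 0.05, the 5 most like Dnajb1 and the 5 most like Hspa1b. Members of the marker lists are also named where they are given beside a result. Fos was added after its values were seen. Alternatives were other pseudocounts, minimum levels, scalings and variance models, the replicate number as a block, voom and leaving out each library.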

Additional observations from a re-analysis of the deposited data

Results flagged for a closer look

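In 48 groups of 4 libraries, 4 held a library far from the other 3 by Dixon's criterion, where chance would give about 2.4. The log2 ratio of Hsp90aa1 to Hsp90ab1 was -2.95 in Ct replicate 3, with -3.18 to -3.16 in the other Ct libraries, and -3.05 in CS replicate 3, with -3.23 to -3.20 in the other CS-exposed libraries. The sum of 5 markers of the retinal pigment epithelium was 25.4 FPKM in CS replicate 3 and 2.68 to 5.78 FPKM in the others of its group. The sum of 5 markers of pigmented cells was 6.52 FPKM in CS replicate 4 and 0.425 to 0.608 FPKM in the others of its group.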

How the results depend on the processing

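The 473 genes with an unadjusted p under 0.05 became 226 with a mean of at least 5 FPKM and 862 with no minimum, where fewer and more genes were tested, and 418 to 525 when 1 library was left out. The single gene at an adjusted p under 0.05 became 0 with no minimum, without the trend or without Ct replicate 4, and 2 with limma-voom on recovered reads. Median centring moved the split of 269 higher and 204 lower to 239 and 235. Without CS replicate 3 it was 220 and 286. Members other than Dnajb1 at an unadjusted p under 0.05 numbered 0 to 1 when 1 library was left out, and that 1 was Chordc1. The other chaperone lists had 4 such genes, 2 without the trend, 2 with limma-voom and 0 to 8 when 1 library was left out (0 without Ct replicate 4, 1 without Ct replicate 3 or CS replicate 4, 8 without Ct replicate 2). Of the 19 alternatives, an unadjusted p under 0.05 was kept in 9 by Hsf4, 15 by Hspe1, 11 by Pfdn5 and 14 by Tomm34. It was lost without any of Ct replicates 1, 3 and 4 and CS replicates 3 and 4 for Hsf4 (highest p 0.104), Ct 3, Ct 4 and CS 1 for Hspe1 (0.0685), Ct 2, 3 and 4 and CS 1, 3 and 4 for Pfdn5 (0.117), and Ct 1, Ct 4, CS 2 and CS 4 for Tomm34 (0.0740).

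Log2 fold changes near 0 changed sign when 1 library was left out. The log2 fold change of Hsf1 ranged from -0.0212 to 0.0855 and that of Hsp90aa1 from -0.0044 to 0.0466. That of Hsph1 ranged from -0.15 to 0.0601, with 0.03 as another value above 0. That of Dnaja1 ranged from -0.0466 to 0.0288, with 0.01, 0.0005 and 0.02 between. The difference between groups in the log2 ratio of inducible to constitutive HSP70 ranged from -0.41 to 0.48, that in the ratio of Hsp90aa1 to Hsp90ab1 from -0.10 to -0.0015, and that in the ratio of Hspa1a to Hspa1b from 0.05 to 0.62. The cause was not tested.

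Same-numbered libraries of the 2 groups deviated together with r of 0.0120 to 0.161, not above 0.1 in every pair, so the numbers were not taken as pairs. Their mean r was 0.0904, against -0.0301 for the 12 pairs with different numbers, whose highest r was 0.0552. Same-numbered libraries were thus slightly more alike than the others, so results with the replicate number as a block are given as an alternative. With the replicate block, 522 genes had an unadjusted p under 0.05 and 5 an adjusted p under 0.05, with 0 members and 4 other chaperone genes among the 522. Depth limits Hspa1a and Hspa1b, at 0 to 64 reads per library. With 4 libraries a group, p-values measure the spread between pools.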
